A study of Mus musculus with 16 samples.

Results

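The genes described here are the 5 dopamine receptor genes (Drd1, Drd2, Drd3, Drd4 and Drd5), the 2 genes for the enzymes that make dopamine (Th and Ddc) and the 2 genes for the monoamine oxidases that break it down (Maoa and Maob). They were chosen by name, through the Ensembl gene identifier of each mouse gene, and make up 9 of the 22337 gene rows of the deposited table. Polyadenylated RNA was sequenced from the nucleus accumbens, a part of the ventral striatum, of C57BL/6 male mice in 4 groups of 4 libraries. Each group had been exposed for 4 days to arecoline, an areca nut alkaloid that activates muscarinic acetylcholine receptors, to caffeine, which blocks adenosine receptors, to nicotine, which activates nicotinic acetylcholine receptors, or to saline. The labels used here give no dose, route or age, and do not state whether a group's libraries represent separate or pooled animals. The p-values therefore reflect library-to-library spread, part of which may be technical. Library totals ran from 9.04 to 24.32 M estimated counts (median 14.94 M).

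Dopamine reaches the nucleus accumbens from the midbrain, along axons whose cell bodies lie outside the dissected tissue. Tyrosine hydroxylase (Th) makes L-DOPA from tyrosine, the rate-limiting step, and aromatic amino acid decarboxylase (Ddc) turns L-DOPA into dopamine. Released dopamine acts on D1-like receptors (Drd1, Drd5), which raise cyclic AMP through stimulatory G proteins, and on D2-like receptors (Drd2, Drd3, Drd4), which lower it through inhibitory G proteins. In the striatum Drd1 marks medium spiny projection neurons of the direct pathway and Drd2 those of the indirect pathway. Monoamine oxidases A and B (Maoa, Maob) oxidise dopamine after reuptake, and Maob is a gene of astrocytes and serotonergic neurons in the brain.

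RefSeq promoter sequence was found for 8 of the 9 genes. Those of Th, Drd1 and Drd2 are shown because Th was the gene whose level differed among the groups and Drd1 and Drd2 ranked the libraries in a similar order. Each sequence is the 250 bases before a RefSeq transcription start, read 5′ to 3′ on the strand of the gene, and for Drd1 the start farther upstream is shown. Capitals mark matches on either strand to the cyclic AMP response element (TGACGTCA), its short core (TGACG), the GC box (GGGCGG) or the TATA box (TATAAA).
Th (GRCm38.p6, chr7:142899996-142900245, minus strand): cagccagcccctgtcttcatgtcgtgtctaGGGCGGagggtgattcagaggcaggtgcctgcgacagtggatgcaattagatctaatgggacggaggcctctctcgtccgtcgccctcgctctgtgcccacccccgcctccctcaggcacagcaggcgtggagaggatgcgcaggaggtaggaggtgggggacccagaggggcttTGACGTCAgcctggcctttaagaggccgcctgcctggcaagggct
Drd1 (GRCm38.p6, chr13:54055659-54055908, minus strand): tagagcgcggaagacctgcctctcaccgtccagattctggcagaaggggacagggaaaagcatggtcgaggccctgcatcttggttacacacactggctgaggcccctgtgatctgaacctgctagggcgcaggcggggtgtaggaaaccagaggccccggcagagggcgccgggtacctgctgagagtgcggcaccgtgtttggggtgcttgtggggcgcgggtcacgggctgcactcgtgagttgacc
Drd2 (GRCm38.p6, chr9:49340153-49340402, plus strand): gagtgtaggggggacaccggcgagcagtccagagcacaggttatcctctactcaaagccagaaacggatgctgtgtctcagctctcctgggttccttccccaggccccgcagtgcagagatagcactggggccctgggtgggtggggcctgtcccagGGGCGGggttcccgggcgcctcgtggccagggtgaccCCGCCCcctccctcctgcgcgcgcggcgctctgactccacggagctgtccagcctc

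The Th promoter holds the full cyclic AMP response element at position -45, counted back from the start, which overlaps the short core on both strands. A full element is in 1.55% of 32851 RefSeq mouse promoters of this length. It also holds a GC box at -220, a motif found in 32.7% of promoters. The Drd2 promoter holds GC boxes at -93 and -56, and none of the letters searched are in the Drd1 window shown. The window of the other RefSeq start of Drd1, not shown, holds a GC box at -133 and has 60.8% GC. GC content was 64.4% for Th, 64% for Drd1 and 68.8% for Drd2, against a median of 52.4% over all promoters. These matches describe the letters only.

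Some libraries stood apart, and the genes described here moved with them. The tissue label was checked with 22 measured markers of medium spiny neurons, none of them among the 9 genes. Their summed level lay between 8471 and 11236 CPM (counts per M counts of the library, scaled with TMM factors) in arecoline replicates 2 and 3 and saline replicate 3. The other 13 libraries had 1209 to 3153 CPM. By group the sum ran from 1209 to 11236 CPM with arecoline, 1248 to 2706 CPM with caffeine, 1585 to 2114 CPM with nicotine and 2691 to 10941 CPM with saline. Markers of cortical excitatory neurons summed to between 422 and 1008 CPM with arecoline, 1256 and 1505 CPM with caffeine, 1221 and 1563 CPM with nicotine, and 289 and 1185 CPM with saline. Olfactory sensory neuron markers summed to 1101 CPM in nicotine replicate 2 and to at most 132 CPM elsewhere. For Drd1, Drd2, Drd3, Th and Maoa, values are also given without these 4 libraries. The 3 striatal ones were set aside for markers that move with Drd1 and Drd2, so values without them are a description of the remaining 12 libraries. For Drd1, Drd2 and Drd3 no p-value is given for them, since saline replicate 3, the highest of its group, is left out. The arecoline group then consists of replicates 1 and 4 alone, the lowest of the group in spiny neuron markers and its highest in olfactory bulb markers, so its direction for Drd1, Drd2, Drd3 and Th is set by that choice and no p-value is given for it. Values without arecoline replicates 1 and 4 are given as well, where the group consists of replicates 2 and 3, both rich in spiny neuron markers. The arecoline values of Drd1, Drd2, Drd3 and Th then depend on that choice too, and no p-value is given for them. In bulk RNA, fewer cells of a type and less RNA per cell cannot be told apart.

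Across the 9 genes, length-scaled FPKM levels were highest for Maob, with a median of 20.74 FPKM over the 16 libraries, followed by Maoa at 8.895 and Drd1 at 7.17 FPKM. Th had a median of 4.675 FPKM, Ddc 2.725 FPKM and Drd2 1.625 FPKM. Drd5 (1.29 FPKM), Drd3 (0.52 FPKM) and Drd4 (0.155 FPKM) were the lowest. The genes also differed in how much replicates varied. The SD of log2 CPM within groups was 2.2 for Drd2, 1.53 for Drd3 and 1.49 for Drd1, against 0.14 for Maob, 0.098 for Maoa and a median of 0.25 over all genes tested. Of the genes tested, 99.8% had a smaller SD than Drd2 and 1.87% a smaller SD than Maoa.

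**Figure D1:**
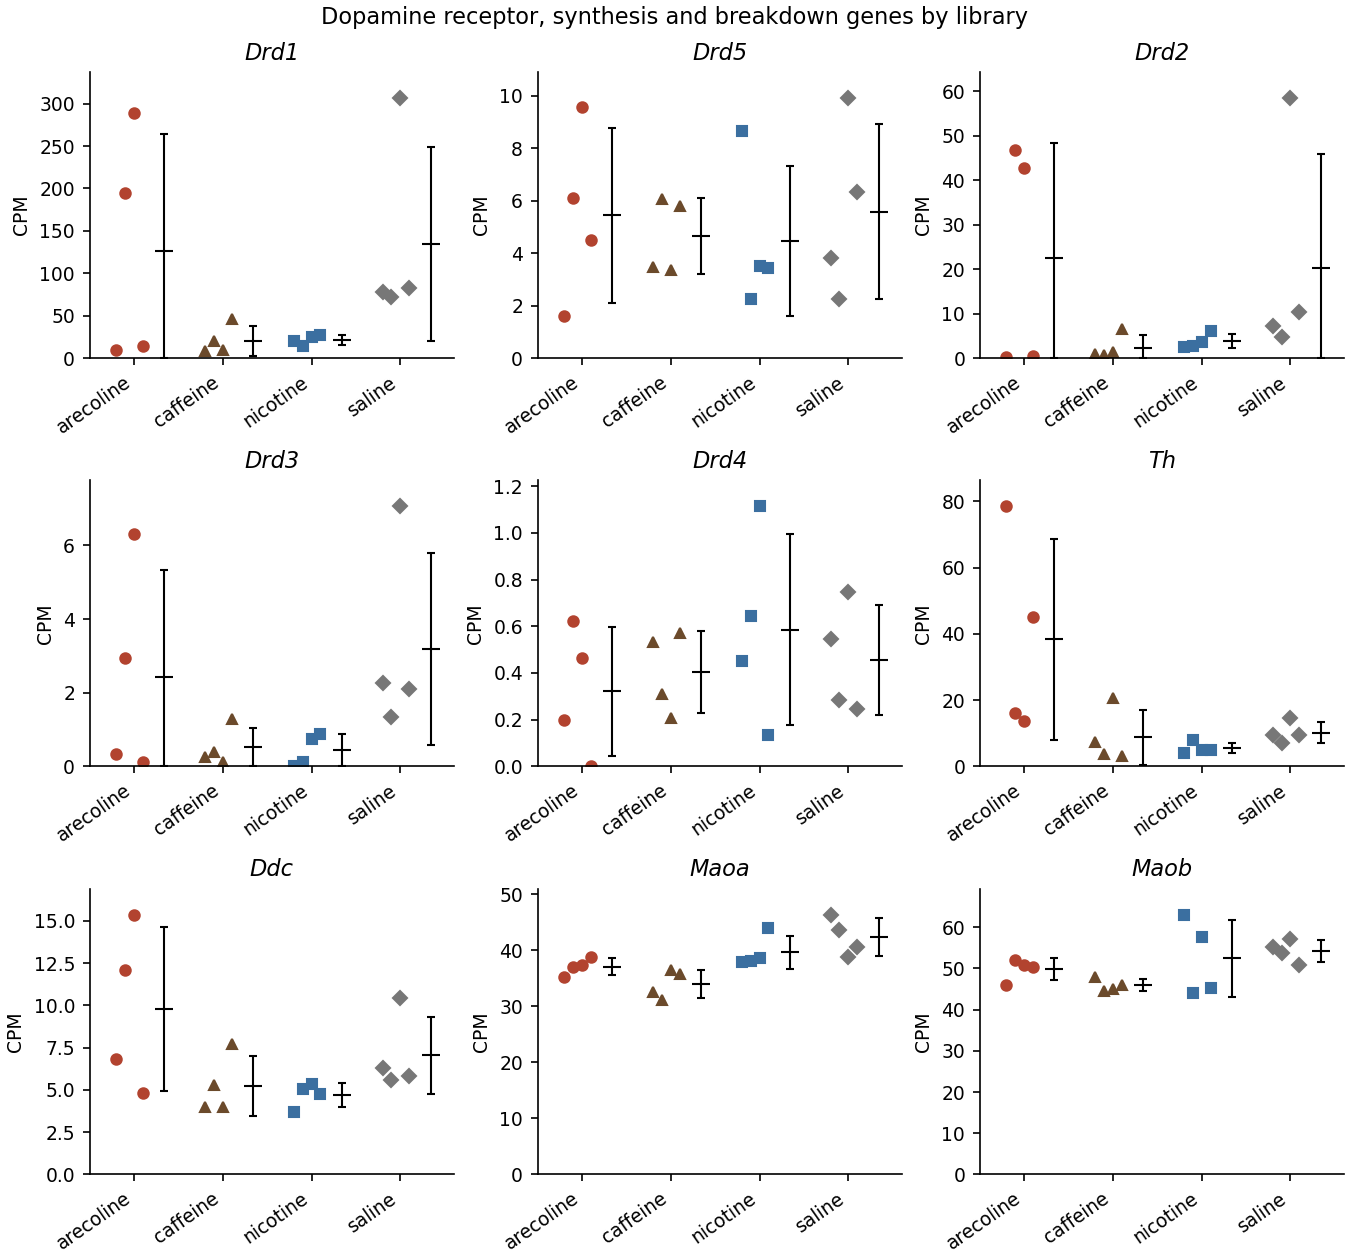
CPM of the 9 genes in each library, on linear axes from 0, by group from left to right (arecoline, caffeine, nicotine, saline; replicates 1 to 4 in order within a group). Black bars show the mean and SD of 4 libraries, with the lower arm stopped at 0; Drd1, Drd2 and Drd3 are highest in saline replicate 3 and arecoline replicates 2 and 3, and Th in arecoline replicates 1 and 4.

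Expression of the 9 genes was compared with saline for each compound to ask whether exposure altered the dopamine system of the accumbens at the transcript level. Of the 8 genes that passed the filter on low counts, none passed an adjusted p of 0.05 against saline with arecoline, caffeine or nicotine (edgeR quasi-likelihood test, adjusted over 14674 genes). Over all genes, 0.0136% were called with arecoline, 4.08% with caffeine and 0.0% with nicotine. At an unadjusted p under 0.05 there were 2 of the 8 genes with arecoline (Th, Maoa), 5 with caffeine (Drd1, Drd2, Drd3, Maoa, Maob) and 2 with nicotine (Drd1, Drd3). Of all 14674 genes, 2301 with arecoline, 3608 with caffeine and 1796 with nicotine were under that unadjusted threshold. DESeq2 called 0 with arecoline, 2 with caffeine (Drd1, Maoa) and 0 with nicotine, where it called 3.05%, 10.0% and 0.716% of all genes. The compound comparisons share the saline libraries. Between compounds, edgeR also called none of the 8 genes. It called 0.0886% of all genes for arecoline over nicotine, 0.0% for caffeine over arecoline and 0.0% for caffeine over nicotine. In that order of comparisons, unadjusted p was under 0.05 for 5, 4 and 1 of the 8 genes, and for 2670, 2325 and 1365 of the 14674 genes. DESeq2 called 1 (Th), 1 (Th) and 0 of the 8, against 4.15%, 2.56% and 0.0341% of all genes.

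**Figure D2:**
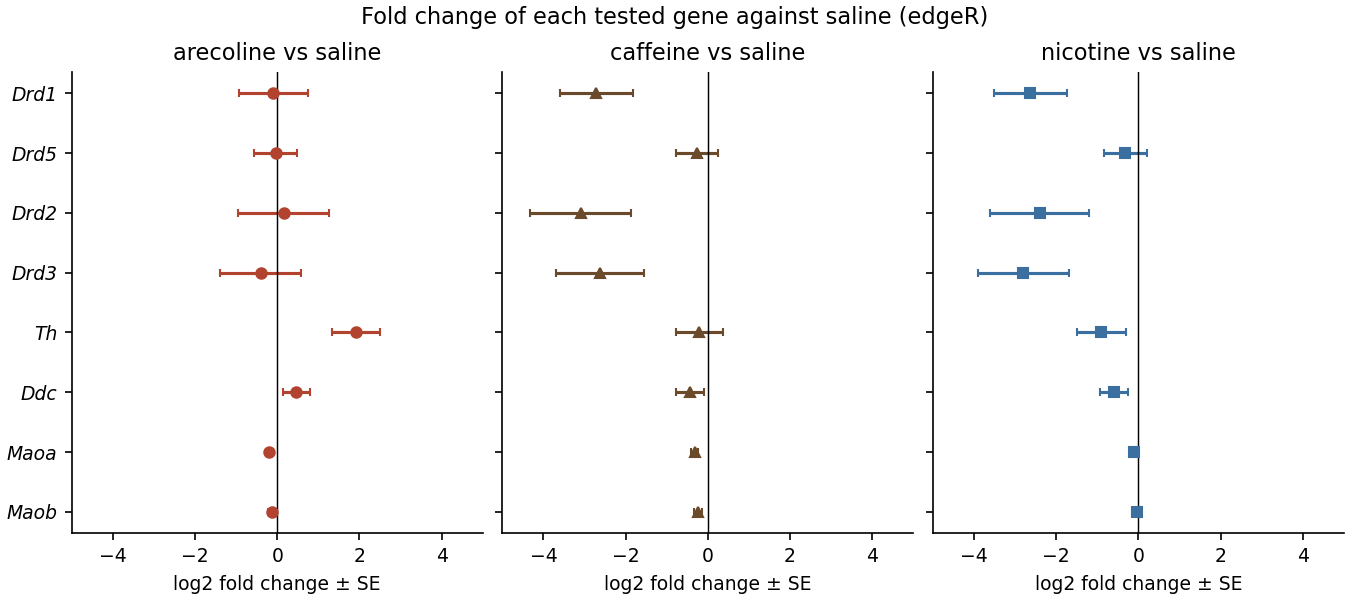
Fitted log2 fold change of each of the 8 tested genes over saline (horizontal axis, log2 units) for arecoline, caffeine and nicotine, from left to right. Points are edgeR estimates and bars their SE; Drd1, Drd2 and Drd3 lie between -3.09 and -2.40 with caffeine and nicotine, and Th lies at 1.91 with arecoline.

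Drd1 (mm10 chromosome 13, 54051183 to 54055705, minus strand), the D1 receptor, spanned 7.89 to 306 CPM across the libraries. It measured 9.66, 194, 289 and 13.7 CPM in arecoline replicates 1 to 4 and 7.89, 19.6, 9.09 and 45.6 CPM in caffeine replicates 1 to 4. Its level was 20.3, 14.3, 24.4 and 27.7 CPM in nicotine replicates 1 to 4, against 78.2, 71.9, 306 and 82.5 CPM in saline replicates 1 to 4. All caffeine and all nicotine libraries lay below all saline libraries, whereas 2 arecoline libraries lay below the saline range and 2 inside it. Group means were 127 ± 138 CPM with arecoline, 20.6 ± 17.5 CPM with caffeine, 21.7 ± 5.76 CPM with nicotine and 135 ± 115 CPM with saline (SD, n = 4 each). The log2 fold change over saline was -0.09 ± 0.83 with arecoline, -2.72 ± 0.89 with caffeine and -2.63 ± 0.89 with nicotine (SE; edgeR, adjusted p = 0.971, 0.0853 and 0.281).

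Without the 4 libraries that stood apart, the log2 fold change of Drd1 was -2.72 ± 0.56 with arecoline, -1.93 ± 0.42 with caffeine and -1.68 ± 0.45 with nicotine (SE; edgeR). In that fit 6.39% of all genes were called with arecoline, 10.0% with caffeine and 0.322% with nicotine. Without arecoline replicates 1 and 4, it was 0.85 ± 0.63 with arecoline and -2.72 ± 0.57 with caffeine (SE; edgeR, adjusted p = 0.0151 with caffeine). That fit called 0.0% of all genes with arecoline, 6.5% with caffeine and 0.0331% with nicotine. DESeq2 on all 16 libraries called Drd1 lower with caffeine (log2 fold change -2.72, adjusted p = 0.0352). Drd1 moved with the medium spiny neuron markers: its 3 highest libraries were the 3 with the highest marker sums. With a score of those markers as a covariate in edgeR, the log2 fold change of Drd1 was -0.24 ± 0.20 with arecoline, -0.53 ± 0.23 with caffeine and -0.63 ± 0.22 with nicotine (SE; adjusted p = 0.560, 0.253 and 0.410). The score ran from -1.48 to 2.28 with arecoline, -1.23 to 0.24 with caffeine and -0.79 to -0.16 with nicotine, against 0.42 to 2.28 with saline. The caffeine and nicotine scores lie wholly below those of saline, so for every gene score and group cannot be fully told apart in those 2 comparisons.

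**Figure D3:**
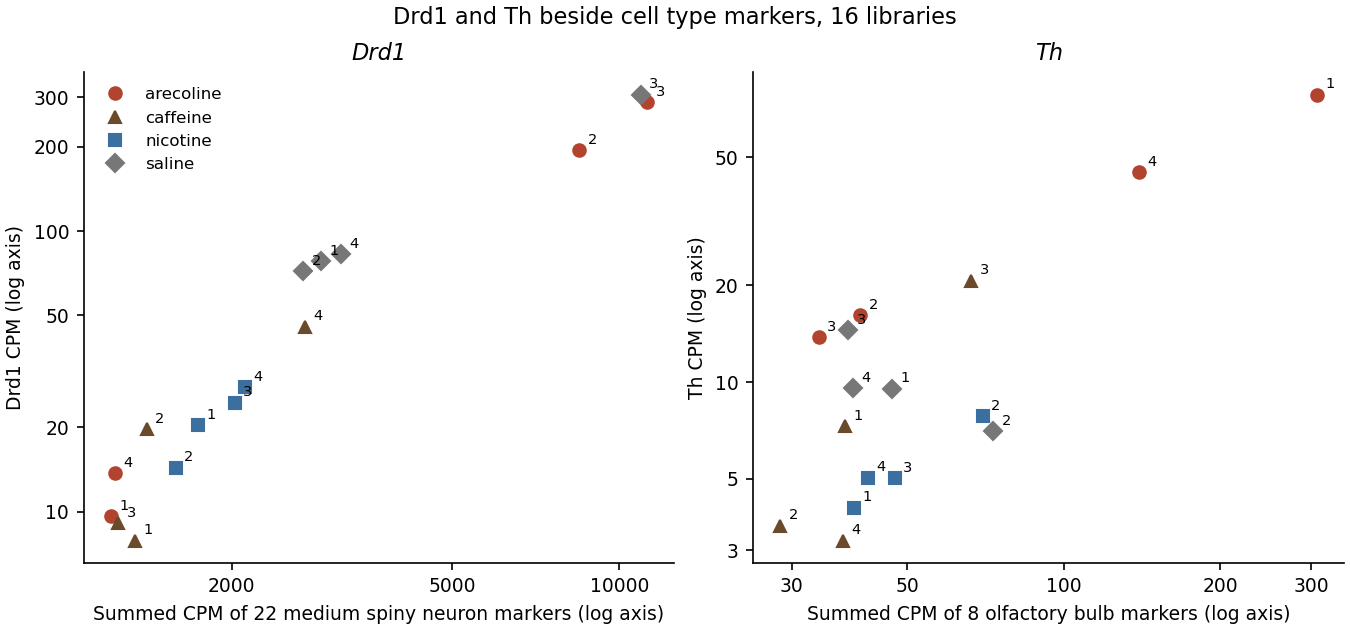
Left, Drd1 CPM against the summed CPM of 22 medium spiny neuron markers; right, Th CPM against the summed CPM of 8 olfactory bulb markers, both on log axes, 1 point per library with its replicate number. Arecoline replicates 2 and 3 and saline replicate 3 lie at the upper right for Drd1, and arecoline replicates 1 and 4 for Th.

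Drd5 (chromosome 5, 38319367 to 38322518, plus strand), the D5 receptor, overlaps the predicted gene Gm26560 on the other strand, and the labels do not say whether counting kept strand, so reads of the pair may not be separable. It lay between 1.59 and 9.58 CPM with arecoline, 3.35 and 6.05 CPM with caffeine, 2.25 and 8.66 CPM with nicotine, and 2.27 and 9.91 CPM with saline. The ranges overlapped in every comparison, and log2 fold changes over saline were -0.04 ± 0.52 with arecoline, -0.26 ± 0.52 with caffeine and -0.32 ± 0.52 with nicotine (SE; edgeR, adjusted p = 0.981, 0.782 and 0.852). These 3 values changed sign in other fits.

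Drd2 (chromosome 9, 49340627 to 49408177, plus strand), the D2 receptor of indirect-pathway neurons and of dopamine terminals, had the largest ratio of its highest to its lowest level, 295-fold, among the 7 genes detected in every library. It measured 0.20, 46.8, 42.8 and 0.57 CPM in arecoline replicates 1 to 4 and 0.87, 0.62, 1.28 and 6.63 CPM in caffeine replicates 1 to 4. Nicotine replicates 1 to 4 had 2.56, 2.78, 3.71 and 6.12 CPM, against 7.23, 4.83, 58.5 and 10.5 CPM in saline replicates 1 to 4. The highest caffeine and nicotine libraries lay above the lowest saline library, so all 3 compound groups overlapped saline. The log2 fold change was 0.16 ± 1.1 with arecoline, -3.09 ± 1.23 with caffeine and -2.40 ± 1.20 with nicotine (SE; edgeR, adjusted p = 0.963, 0.137 and 0.435). Without the 4 libraries, Drd2 stood at -4.20 ± 0.96 with arecoline, -1.66 ± 0.61 with caffeine and -0.86 ± 0.65 with nicotine (SE; edgeR). Without arecoline replicates 1 and 4, it stood at 1.14 ± 0.84 with arecoline and -3.10 ± 0.80 with caffeine (SE; edgeR, adjusted p = 0.0349 with caffeine). With the spiny neuron marker score in the model, the edgeR values were -0.19 ± 0.26 with arecoline, 0.39 ± 0.32 with caffeine and 0.84 ± 0.30 with nicotine (adjusted p = 0.752, 0.578 and 0.429), so those for all 3 compounds changed sign.

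Drd3 (chromosome 16, 43754026 to 43822932, plus strand), the D3 receptor, typical of the ventral striatum and the islands of Calleja, was low throughout. It measured 0.33, 2.94, 6.32 and 0.10 CPM in arecoline replicates 1 to 4 and 0.24, 0.39, 0.12 and 1.29 CPM in caffeine replicates 1 to 4. The level was 0, 0.11, 0.74 and 0.87 CPM in nicotine replicates 1 to 4, against 2.25, 1.35, 7.06 and 2.11 CPM in saline replicates 1 to 4. Every caffeine and nicotine library was below every saline library, the closest pair being caffeine replicate 4 and saline replicate 2. The count of 0 in nicotine replicate 1 allows up to 0.226 CPM (3 counts, counting error only). The log2 fold change was -0.41 ± 0.98 with arecoline, -2.63 ± 1.07 with caffeine and -2.80 ± 1.1 with nicotine (SE; edgeR, adjusted p = 0.881, 0.146 and 0.339). Without the 4 libraries it was -3.13 ± 1.13 with arecoline, -1.89 ± 0.79 with caffeine and -1.78 ± 0.88 with nicotine (SE; edgeR), and without arecoline replicates 1 and 4 it was 0.54 ± 0.91 with arecoline. With the spiny neuron marker score in the model and all 16 libraries these became -0.61 ± 0.55, -0.40 ± 0.65 and -0.84 ± 0.64 for arecoline, caffeine and nicotine.

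Drd4 (chromosome 7, 141292006 to 141296464, plus strand), the D4 receptor, did not pass the filter on low counts. It lay between 0 and 0.62 CPM with arecoline, 0.21 and 0.57 CPM with caffeine, 0.13 and 1.11 CPM with nicotine, and 0.24 and 0.75 CPM with saline. The count of 0 in arecoline replicate 4 allows up to 0.157 CPM. Fitted without that filter, its log2 fold change over saline was -0.49 ± 0.85 with arecoline, -0.16 ± 0.83 with caffeine and 0.35 ± 0.84 with nicotine (SE; edgeR, adjusted p = 0.856, 0.960 and 0.931).

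Within each library Drd1 was compared with Drd2, a ratio in which the library total cancels apart from the constant added to each gene. The log2 ratio (0.5 CPM added to each gene) averaged 3.09 ± 0.86 with arecoline, 2.98 ± 0.80 with caffeine, 2.40 ± 0.32 with nicotine and 3.10 ± 0.59 with saline (SD, n = 4 each). The differences from saline were -0.01, -0.13 and -0.70 for arecoline, caffeine and nicotine (two-sided exact permutation test, p = 0.971, 0.8286 and 0.114; adjusted over 6 ratio tests, 0.971, 0.971 and 0.686). The smallest p that 4 against 4 libraries allow is 0.0286. At this constant individual ratios ran from 2.04 to 4.17, and the ranges of all groups overlapped that of saline. The constant weighs most in the 4 libraries where Drd2 was under 1 CPM.

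**Figure D4:**
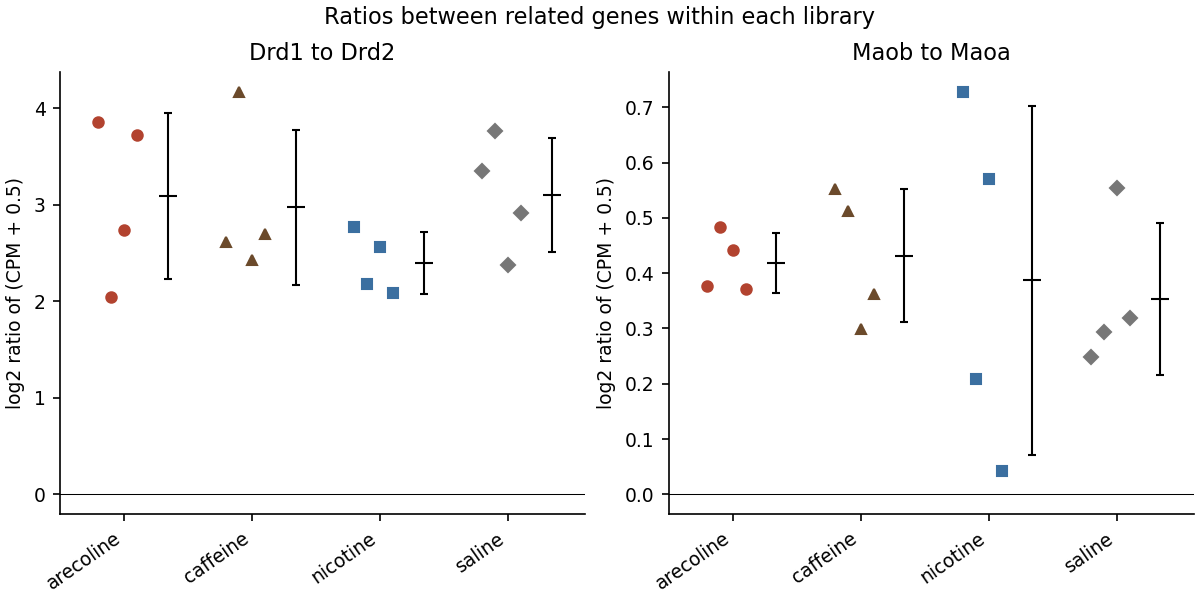
Log2 ratio of Drd1 to Drd2 (left) and of Maob to Maoa (right) in each library, computed from CPM with 0.5 added, by group (arecoline, caffeine, nicotine, saline). Black bars show mean and SD of 4 libraries; each compound overlaps saline in both ratios.

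Th (chromosome 7, 142892752 to 142931128, minus strand), tyrosine hydroxylase, was the single gene of the 8 tested that differed among the 4 groups (edgeR F test, adjusted p = 0.0485; 1.14% of all genes were called in this test). Over all genes that count was 167, and it ran from 1 (without caffeine replicate 1 or 2) to 351 (without arecoline replicate 2) when 1 library was left out. It measured 78.5, 16.1, 13.8 and 44.9 CPM in arecoline replicates 1 to 4 and 7.31, 3.57, 20.7 and 3.21 CPM in caffeine replicates 1 to 4. Levels were 4.07, 7.82, 5.01 and 5.04 CPM in nicotine replicates 1 to 4, against 9.54, 7.03, 14.5 and 9.57 CPM in saline replicates 1 to 4. All arecoline libraries lay above all nicotine libraries, and arecoline replicate 3 lay just below saline replicate 3. Means were 38.3 ± 30.3 CPM with arecoline, 8.69 ± 8.20 CPM with caffeine, 5.48 ± 1.62 CPM with nicotine and 10.2 ± 3.14 CPM with saline (SD, n = 4 each). The log2 fold change over saline was 1.91 ± 0.58 with arecoline, -0.21 ± 0.57 with caffeine and -0.90 ± 0.59 with nicotine (SE; edgeR, adjusted p = 0.136, 0.844 and 0.563).

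Between compounds, the log2 fold change of Th was 2.82 ± 0.61 for arecoline over nicotine and -2.12 ± 0.58 for caffeine over arecoline (SE; edgeR, adjusted p = 0.0571 and 0.140). The adjusted p for a difference among the 4 groups lay just under the threshold. It was 0.0329 without arecoline replicate 2, 0.0419 without arecoline replicate 3, 0.0346 without caffeine replicate 3 and 0.0488 without saline replicate 3. Leaving out any of the other 12 libraries put it above the threshold, between 0.0511 (without nicotine replicate 2) and 0.117 (without arecoline replicate 1). In this test of all 4 groups DESeq2 called 2 of the 8 genes (Th, Drd1) and 11.2% of all genes. Whichever library was left out, the log2 fold change of arecoline over nicotine stayed between 2.2 and 3.09. Without the 4 libraries that stood apart, where arecoline replicates 1 and 4 remained, the log2 fold change over saline was 2.82 ± 0.54 with arecoline. In that fit 1.89% of all genes were called for arecoline over nicotine, 0.577% for caffeine over arecoline and 8.02% for any difference. Without arecoline replicates 1 and 4, it was 0.56 ± 0.55 with arecoline over saline and 1.47 ± 0.55 with arecoline over nicotine (SE; edgeR, adjusted p = 0.715 and 0.149), and the test of any difference gave an adjusted p of 0.286. That fit called 2.04% of all genes for arecoline over nicotine, 4.63% for caffeine over arecoline and 4.85% for any difference.

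Th is also a gene of dopaminergic cells around the glomeruli of the olfactory bulb, and the bulb's markers were highest in the 2 libraries with the most Th. Of 8 fixed olfactory bulb markers, all in the table, the summed level was 307 CPM in arecoline replicate 1 and 140 CPM in arecoline replicate 4, the 2 libraries with the most Th, and between 28.5 and 73.2 CPM in the other 14. By group the sum ran from 33.8 to 307 CPM with arecoline, 28.5 to 66.5 CPM with caffeine, 39.5 to 69.9 CPM with nicotine and 38.5 to 73.2 CPM with saline. Doc2g, a gene of mitral and tufted cells, reached 141 and 54.3 CPM in arecoline replicates 1 and 4 and at most 21.9 CPM elsewhere, and Sp8, a transcription factor of bulb interneurons, 30.2 and 27.9 CPM in those libraries and at most 11.7 CPM elsewhere. Cdhr1 was at 87.3 and 38.1 CPM in those libraries, against 50.7 CPM in nicotine replicate 2 and 42.8 CPM in saline replicate 2. Barhl2, the lowest of the list, was at 0 in 11 libraries and at most 0.86 CPM. Among the other 14 libraries the order was mixed. Th was 7.03 CPM at the highest sum, 73.2 CPM in saline replicate 2, and 13.8 CPM at 33.8 CPM in arecoline replicate 3. Caffeine replicate 3 had 20.7 CPM of Th at a sum of 66.5 CPM. The values of Th without these 2 libraries stand above, and the part of the markers in them was not tested further.

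Of 12 markers of midbrain dopamine neurons, all in the table, 3 that mark their cell bodies were at or near 0. Foxa2 had no counts in any of the 16 libraries, En1 was at most 0.081 CPM and Pitx3 at most 0.14 CPM. Of the same list, Foxa1 was at most 0.20 CPM and Lmx1b at most 0.78 CPM. The whole list, which includes Th, Ddc, Slc6a3 and Slc18a2, summed to between 77.8 and 133 CPM with arecoline, 64.9 and 78.3 CPM with caffeine, 59.8 and 63.1 CPM with nicotine, and 50.6 and 84.6 CPM with saline. Nr4a2, also a gene of other neurons, lay between 6.04 and 45.9 CPM, and Slc18a2, the vesicular monoamine transporter, between 4.55 and 13.3 CPM. Slc10a4 lay between 1.15 CPM in arecoline replicate 4 and 46.1 CPM in arecoline replicate 3, whose sum was 108 CPM, and Sncg between 1.70 and 6.16 CPM. Of the 7 genes of the list that were tested, 1 was called higher and 0 lower with caffeine over saline (edgeR), where 4.08% of all genes were called. Slc6a3, the dopamine transporter, lay between 1.36 and 6.62 CPM with arecoline, 2.48 and 3.29 CPM with caffeine, 2.35 and 3.56 CPM with nicotine, and 0.75 and 2.84 CPM with saline. Its highest levels were those of arecoline replicates 1 and 4, at 6.62 and 4.70 CPM, and its log2 fold change with arecoline was 1.03 ± 0.46 (SE; edgeR, adjusted p = 0.294). Without those 2 libraries the fold change of Slc6a3 with arecoline changed sign, to -0.20 ± 0.44. Without the 4 libraries that stood apart, where those 2 remained, it was 1.44 ± 0.34 (SE; edgeR).

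Ddc (chromosome 11, 11814101 to 11898144, minus strand), the decarboxylase, followed a different order of libraries from Th. It overlaps 1700042O10Rik on the other strand, so reads of the pair may not be separable. It measured 6.82, 12.1, 15.4 and 4.81 CPM in arecoline replicates 1 to 4 and 3.97, 5.28, 3.97 and 7.72 CPM in caffeine replicates 1 to 4. Nicotine replicates 1 to 4 had 3.69, 5.03, 5.32 and 4.77 CPM, against 6.27, 5.61, 10.5 and 5.84 CPM in saline replicates 1 to 4. Its highest libraries were the 3 rich in medium spiny neuron markers, not those with the most Th, and all nicotine libraries lay below all saline libraries. Log2 fold changes over saline were 0.47 ± 0.33 with arecoline, -0.43 ± 0.33 with caffeine and -0.58 ± 0.34 with nicotine (SE; edgeR, adjusted p = 0.521, 0.432 and 0.509).

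Maoa (chromosome X, 16619698 to 16687818, plus strand), monoamine oxidase A, was among the least variable genes of the table. It measured 35.2, 37.0, 37.3 and 38.8 CPM in arecoline replicates 1 to 4 and 32.5, 31.1, 36.5 and 35.7 CPM in caffeine replicates 1 to 4. Levels of 37.9, 38.0, 38.7 and 44.0 CPM in nicotine replicates 1 to 4 stood against 46.4, 43.7, 38.8 and 40.6 CPM in saline replicates 1 to 4. Every arecoline and every caffeine library lay below every saline library, the arecoline group by a narrow margin, and every caffeine library lay below every nicotine library. The log2 fold change over saline was -0.19 ± 0.09 with arecoline, -0.32 ± 0.09 with caffeine and -0.10 ± 0.09 with nicotine (SE; edgeR, adjusted p = 0.314, 0.0555 and 0.706). Between caffeine and nicotine it was -0.22 ± 0.09 (adjusted p = 0.495). Maoa was called lower with caffeine by DESeq2 (log2 fold change -0.32, adjusted p = 0.0213) and by edgeR without the 4 libraries that stood apart (-0.36 ± 0.11, adjusted p = 0.0433). The marker score in the model left the caffeine value at -0.32 ± 0.11 (adjusted p = 0.152).

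Maob (chromosome X, 16709282 to 16817366, minus strand), monoamine oxidase B, lies beside Maoa in the opposite direction. It measured 45.9, 52.0, 50.9 and 50.3 CPM in arecoline replicates 1 to 4 and 47.9, 44.6, 45.1 and 46.0 CPM in caffeine replicates 1 to 4. Nicotine replicates 1 to 4 spread more widely, at 63.1, 44.0, 57.7 and 45.3 CPM, against 55.2, 53.6, 57.2 and 50.7 CPM in saline replicates 1 to 4. All caffeine libraries lay below all saline libraries. The log2 fold change was -0.12 ± 0.11 with arecoline, -0.24 ± 0.11 with caffeine and -0.04 ± 0.11 with nicotine (SE; edgeR, adjusted p = 0.612, 0.18 and 0.907). Astrocyte markers, 14 of 14 measured, summed to between 5476 and 6419 CPM with arecoline, 4708 and 6963 CPM with caffeine, 6309 and 7903 CPM with nicotine, and 6875 and 8855 CPM with saline, and their part in the Maob values was not tested.

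The log2 ratio of Maob to Maoa averaged 0.42 ± 0.05 with arecoline, 0.43 ± 0.12 with caffeine, 0.39 ± 0.32 with nicotine and 0.35 ± 0.14 with saline (SD, n = 4 each). Its differences from saline were 0.07, 0.08 and 0.03 for arecoline, caffeine and nicotine (two-sided exact permutation test, p = 0.400, 0.343 and 0.886; adjusted over the 6 ratio tests, 0.800, 0.800 and 0.971). The nicotine group held both the highest and the lowest ratio of the 16 libraries, 0.73 in replicate 1 and 0.04 in replicate 4.

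In the order of group means, arecoline was highest for Drd2, Th and Ddc, nicotine for Drd4, and saline for Drd1, Drd3, Drd5, Maoa and Maob. Arecoline was lowest for Drd4, caffeine for Drd1, Drd2, Maoa and Maob, and nicotine for Drd3, Drd5, Th and Ddc. For all 9 genes, every pair of neighbouring groups in that order had overlapping ranges. Some groups further apart in the order did not overlap, as given above for Drd1, Drd3, Th, Ddc, Maoa and Maob. How often groups separate over all genes was not counted.

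The genes were also compared by the order in which they ranked the 16 libraries, with the mean absolute difference in rank as the measure of likeness. All these profiles share the libraries' composition and depth. Its median between a gene and all other genes tested was 5.38. Drd1 differed from Drd2 by 1.38 ranks, from Drd3 by 1.38 and from Ddc by 2.38, but from Th by 5.63. Drd2 and Drd3 differed by 1.75 ranks, Maoa and Maob by 4.13, and Th and Ddc by 4.38.

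The genes nearest to Drd1 were Pde1b (0.50), Rgs9 (0.63) and Pde10a (0.63), of which Pde1b and Pde10a encode phosphodiesterases and Rgs9 a regulator of G protein signalling rich in striatum. Genes near Drd2 included Kazn (0.63) and Inf2 (0.75). Drd3 was nearest to Cacna2d3, to Gad2, which makes GABA, and to Gnb4 (1.13 each). Ddc was nearest to the GABA vesicle transporter Slc32a1 (1.38), to Slc17a8 (1.5) and to Pigc (1.63). For Th the nearest genes were Trh (1.25), which encodes thyrotropin-releasing hormone and is on the olfactory bulb list, Mdm1 (1.75) and Pnmt (1.75). Maoa was nearest to Plch1 (1.25), Tpp1 (1.5) and S1pr1 (1.63), Maob to Sod2 (2.13), Tprkb (2.13) and Ip6k3 (2.25), and Drd5 to Rbm34 (1.88), Ankrd2 (2.00) and Lhx6 (2.00).

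Of 17 further genes for dopamine handling and its cofactors, 16 were tested. With caffeine 1 fell and 0 rose, where 4.08% of all genes were called, and with arecoline and with nicotine 0 passed in either direction. The gene that fell was Aldh1a1, an aldehyde dehydrogenase of a subset of dopamine neurons that oxidises the aldehyde made from dopamine by monoamine oxidase. It averaged 23.9 ± 5.75 CPM with arecoline, 21.3 ± 3.10 CPM with caffeine, 36.5 ± 12.9 CPM with nicotine and 53.2 ± 23.6 CPM with saline (SD, n = 4 each). Its log2 fold change over saline with caffeine was -1.32 ± 0.30 (SE; edgeR, adjusted p = 0.0274). That call was lost without caffeine replicate 1, 2 or 3 (adjusted p = 0.102, 0.0770 and 0.0578) or saline replicate 2 (0.0807), where its log2 fold change was -1.30, -1.35, -1.22 and -1.12. Some other cell marker sums also differed between caffeine and saline. Oligodendrocyte markers summed to between 3503 and 5670 CPM with caffeine and 7391 and 8567 CPM with saline, with no overlap. Those of pericytes, smooth muscle and fibroblasts summed to between 173 and 213 CPM with caffeine and 240 and 433 CPM with saline, again without overlap. Across libraries the order was mixed: arecoline replicate 3 had the highest oligodendrocyte sum, 9771 CPM, and the lowest Aldh1a1, 17.0 CPM. Saline replicate 3 had the 433 CPM and the lowest Aldh1a1 of the saline group, 26.3 CPM. Astrocyte markers summed to 7927, 8855, 6875 and 7011 CPM in saline replicates 1 to 4, where Aldh1a1 was 71.8, 74.3, 26.3 and 40.3 CPM. With caffeine 3 of 14 astrocyte markers and 9 of 14 oligodendrocyte markers were called lower than with saline (edgeR). The part of these markers in the Aldh1a1 value was not tested. The median log2 fold change of the list was -0.17 with arecoline, -0.29 with caffeine and -0.02 with nicotine, against 0.004, -0.018 and 0.018 over all genes tested. Aldh1a1 and Slc29a4, a monoamine transporter of the plasma membrane, had the smallest p for any difference among the groups (edgeR, adjusted p = 0.0614 and 0.0755).

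None of 32 genes of dopamine receptor signalling, all tested, passed against saline with any compound, at 0 higher and 0 lower each (edgeR). With caffeine 6 passed with DESeq2, 12 without the 4 libraries that stood apart and 11 without arecoline replicates 1 and 4. Those fits called 10.0%, 10.0% and 6.5% of all genes with caffeine. With arecoline 13 passed without the 4 libraries, where 6.39% of all genes were called. The median log2 fold change of the list was -0.01 with arecoline, -0.24 with caffeine and -0.24 with nicotine, against 0.004, -0.018 and 0.018 over all genes tested. The smallest p for any difference belonged to Arrb2, a beta-arrestin that binds phosphorylated receptors, and Rgs9 (edgeR, adjusted p = 0.0739 and 0.0987). Arrb2 averaged 25.5 ± 2.26 CPM with arecoline, 31.6 ± 2.76 CPM with caffeine, 33.6 ± 3.15 CPM with nicotine and 25.5 ± 2.58 CPM with saline (SD, n = 4 each). Rgs9 averaged 228 ± 226 CPM with arecoline, 52.7 ± 20.5 CPM with caffeine, 56.3 ± 14.7 CPM with nicotine and 254 ± 233 CPM with saline, and like Drd1 was highest in the 3 libraries rich in medium spiny neuron markers.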

How the data were processed

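Per the labels' protocols, Trizol-extracted RNA was primed with oligo-dT, copied by template switching and PCR amplified to give 16 libraries. Tools named in the submitters' processing notes are RSEM, StringTie 1.3.1, HISAT2, Bowtie2 2.2.8 and fastp 0.18.0, and the build is mm10. The authors deposited an estimated count per gene and library, and FPKM values scaled to gene length and library total, per the file headers. The number of unmatched per-library columns was 0, and 22232 of the gene identifiers had a symbol and coordinates in GENCODE M21. Estimated counts were rounded, and edgeR 4.0.16 (R 4.3.3) tested them (filterByExpr, TMM, 1 mean per group over all libraries, Benjamini-Hochberg over 14674 genes, threshold 0.05); the steps were tested on simulated data. Alternatives used DESeq2 1.42.0 and limma 3.58.1 on log2(FPKM + 1) and log2(FPKM + 0.1). At the lowest total, 1 CPM is 9.04 counts. No 2 libraries of a group agreed within sampling noise. The members and lists were chosen with earlier results of these data known. Named genes were all members, the 3 nearest in library order to each (1 is not reported here), and, of each list, called genes and the 2 with the smallest p.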

Additional observations from a re-analysis of the deposited data

Results flagged for a closer look

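In 6 of the 36 combinations of gene and group, 1 library stood far from the other 3, and chance gives about 1 in 20 such cases. Saline replicate 3 was the highest of its group for Drd1 at 306 CPM, for Drd2 at 58.5 CPM, for Drd3 at 7.06 CPM and for Ddc at 10.5 CPM, and it had the highest medium spiny neuron marker sum of the saline group. Drd2 was highest of the caffeine group in replicate 4, at 6.63 CPM, the caffeine library with the most medium spiny neuron markers. Maoa was highest of the nicotine group in replicate 4, at 44.0 CPM. The part of cell composition in these values was not tested.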

How the results depend on the processing

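Over 24 member fold changes against saline and 623 alternatives, 574 kept direction and side of the threshold, 40 reversed, 9 passed newly and 0 were lost, and 1 of those reversed (Drd2, arecoline, without the 4 libraries) also passed; causes were not tested. Depth limits Drd3 and Drd4. The values without the 4 libraries that stood apart, without arecoline replicates 1 and 4, and with the marker score were chosen after seeing the data. Members called were 3 for arecoline without the 4 libraries; for caffeine 2 with DESeq2, 1 with caffeine and saline alone and 2 without the 4; for arecoline over nicotine 1 with DESeq2, with the replicate block, without the 4 and with the score; for caffeine over arecoline 1 with DESeq2 and without the 4; and for any difference 2 with DESeq2, 0 with limma at either pseudocount, 0 with the replicate block and 3 without the 4. Without arecoline replicates 1 and 4 they were 2 for caffeine (Drd1, Drd2), 2 for arecoline over nicotine, 3 for caffeine over arecoline and 3 for any difference (Ddc, Drd1, Drd2). Both without the 4 libraries and without arecoline replicates 1 and 4, counts that involve arecoline depend on which 2 of its libraries remained. Counts against saline without the 4 libraries also depend on leaving out saline replicate 3, the highest of its group for Drd1, Drd2 and Drd3. Leaving out 1 library gave 0 to 1 for arecoline over nicotine and for any difference, and 0 against saline.

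The replicate numbers did not pair the libraries (correlations of deviations from -0.276 to 0.49, median 0.022; 6 of 16 libraries correlated best with their own number). With the replicate block Th reached an adjusted p of 0.0492 for arecoline over nicotine and 0.0517 for any difference, and over all genes 98 were called with arecoline, 997 with caffeine, 219 for arecoline over nicotine and 426 for any difference, against 2, 599, 13 and 167 without it. With the marker score these counts were 22, 29, 162 and 59, and caffeine and saline alone gave 806 of 14199 genes.

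Reversed with the 4 libraries left out were Drd5 with caffeine (0.16) and nicotine (0.33), Drd2 with arecoline (-4.20), Th with caffeine (0.026), Ddc with arecoline (-0.028), Maob with nicotine (0.056) and the Drd1 to Drd2 ratio with arecoline (0.45). With the marker score they were Drd5 with arecoline (0.17), caffeine (0.54) and nicotine (0.39), Drd2 with arecoline (-0.19), caffeine (0.39) and nicotine (0.84), and Ddc with caffeine (0.27) and nicotine (0.0051). Drd2 with arecoline was -0.39 and -1.24 with limma (pseudocounts 1 and 0.1), and the Drd1 to Drd2 ratio was 0.39 with arecoline and 0.17 with caffeine at a pseudocount of 0.1 CPM. Without arecoline replicates 1 and 4, arecoline values reversed for Drd1 (0.85), Drd5 (0.49) and Drd3 (0.54).

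Leaving out 1 library, log2 fold changes that reversed ranged from -0.89 to 0.71 (Drd1, arecoline), -0.45 to 0.40 (Drd5, arecoline), -0.52 to 0.17 (Drd5, caffeine), -0.86 to 0.12 (Drd5, nicotine), -0.47 to 1.59 (Drd2, arecoline), -1.50 to 0.34 (Drd3, arecoline), -1.10 to 0.071 (Th, caffeine), -0.15 to 0.027 (Maob, nicotine) and -0.19 to 0.98 (Th, caffeine over nicotine). Ratios ranged from -0.27 to 0.34 (Drd1 to Drd2, arecoline), -0.52 to 0.093 (Drd1 to Drd2, caffeine) and -0.079 to 0.15 (Maob to Maoa, nicotine).

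Over all genes, DESeq2 called 448 genes with arecoline, 1474 with caffeine, 105 with nicotine and 1649 for any difference, where edgeR called 2, 599, 0 and 167; without the 4 libraries edgeR called 952, 1491, 48 and 1194. Limma called 18 and 30 for any difference and 498 and 469 with caffeine (pseudocounts 1 and 0.1). Without arecoline replicates 1 and 4, edgeR called 980 genes with caffeine. Leaving out 1 library gave 0 to 198 genes with arecoline, 23 to 995 with caffeine and 0 to 4 with nicotine. It gave 2 to 298 for arecoline over nicotine and 0 to 67 for caffeine over arecoline. Of the handling list, 2 genes passed with arecoline by DESeq2 and 3 without the 4 libraries; with caffeine 3 by DESeq2, 2 by limma, 2 with the block, 4 with caffeine and saline alone, 4 without the 4 libraries, 3 without arecoline replicates 1 and 4 and 0 to 3 leaving out 1 library; and 1 with nicotine without the 4. Of the signalling list, 1 passed with caffeine with the block and 5 with caffeine and saline alone.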
